A study of Mus musculus with 10 samples.

Results

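Collagens are the main structural proteins of the extracellular matrix, and the genes described here are all those of the count table whose symbol is that of a collagen alpha chain (Col, a type number, a, a chain number). The symbol pattern found 44 of the 37882 genes in the table, and no measured value entered the choice. The 44 genes fall into 11 fibrillar chains, 9 network-forming chains, 6 beaded-filament chains of type VI and 9 FACIT chains (fibril-associated collagens with interrupted triple helices). The remaining genes are 4 transmembrane chains, 2 multiplexins, 1 anchoring-fibril chain and 2 others, Col26a1 and Col28a1. Of the 44, 30 passed the low-count filter and could be tested.

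RNA came from tumours of the mouse mammary cancer line MCa-M3C, grown orthotopically in FVB/N mice. Mice given TMA-ARB, a form of the angiotensin receptor blocker valsartan, received 40 mg/kg of valsartan intravenously once a day for 6 days (5 libraries, replicates 6 to 10). Control mice received the same volume of PBS by the same route and for the same time (5 libraries, replicates 1 to 5). Treatment in both groups started at about 100 mm3, poly-A RNA was sequenced, and the labels give no age of the mice. All tumours came from 1 cell line. Whether every library is from its own mouse is not stated in the labels, and p-values then reflect only the spread among these libraries, which may be technical. The tumours hold host cells beside the grafted ones, and in bulk tissue fewer cells of a type and less RNA per cell cannot be told apart.

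Collagen chains are made with long repeats of glycine and other residues, are hydroxylated on proline and lysine in the endoplasmic reticulum, and wind into trimers before secretion. Fibrillar trimers are trimmed by propeptide proteases, packed into fibrils and cross-linked by lysyl oxidases, whereas type IV builds the sheet of the basement membrane and type VI forms beaded filaments around cells. Angiotensin II signalling is known to promote collagen production by fibroblasts, and the comparison asks whether collagen transcripts differ between tumours under TMA-ARB and under PBS.

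Several collagen genes lie side by side in the genome. Col4a1 and Col4a2, the chains of the common type IV trimer, lie head to head on chromosome 8, where their gene models overlap by 22 bases. Col6a2 and Col6a1, which share the type VI trimer with Col6a3, lie on the same strand of chromosome 10, 85161 bases apart. Promoter windows of these pairs are shown because ratios of these 4 chains were taken in every library and their correlations over all 10 libraries. Each window holds 250 bases before and 50 bases after the RefSeq start in GRCm38.p6, written 5′ to 3′ on the strand of its gene. Capitals mark the CCAAT box (CCAAT) and the GC box (GGGCGG), each searched on both strands, and the search also covered the TATA box (TATAAA), which was found in none of the 4 windows.
Col4a1, chr8:11312777-11313076, minus strand: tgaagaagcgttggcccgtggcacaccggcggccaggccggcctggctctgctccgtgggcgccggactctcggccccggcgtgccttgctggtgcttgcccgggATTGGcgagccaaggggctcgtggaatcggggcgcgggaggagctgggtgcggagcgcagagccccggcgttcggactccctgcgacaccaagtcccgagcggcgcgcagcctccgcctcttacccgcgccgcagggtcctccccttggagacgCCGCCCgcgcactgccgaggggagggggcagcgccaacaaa
Col4a2, chr8:11312555-11312854, plus strand: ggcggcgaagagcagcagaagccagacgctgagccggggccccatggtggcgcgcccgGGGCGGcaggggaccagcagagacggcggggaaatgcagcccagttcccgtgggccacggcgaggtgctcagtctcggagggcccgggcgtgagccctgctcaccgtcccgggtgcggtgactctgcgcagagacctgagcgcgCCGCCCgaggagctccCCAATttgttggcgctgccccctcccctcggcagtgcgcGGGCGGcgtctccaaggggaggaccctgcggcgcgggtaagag
Col6a1, chr10:76725995-76726294, minus strand: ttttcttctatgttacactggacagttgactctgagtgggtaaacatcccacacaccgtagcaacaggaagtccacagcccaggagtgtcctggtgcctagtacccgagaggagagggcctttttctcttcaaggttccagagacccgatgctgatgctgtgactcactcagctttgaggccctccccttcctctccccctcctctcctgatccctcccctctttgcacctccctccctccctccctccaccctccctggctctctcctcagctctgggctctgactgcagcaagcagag
Col6a2, chr10:76623581-76623880, minus strand: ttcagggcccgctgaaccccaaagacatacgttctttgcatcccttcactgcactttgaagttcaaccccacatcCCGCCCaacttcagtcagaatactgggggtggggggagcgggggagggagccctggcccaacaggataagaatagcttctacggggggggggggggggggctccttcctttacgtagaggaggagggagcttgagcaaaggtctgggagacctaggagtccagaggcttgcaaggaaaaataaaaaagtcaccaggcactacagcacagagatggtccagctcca
The windows of Col4a1 and Col4a2 share 78 bases, and 1 GC box lies at the same position in both. The Col4a1 window holds 1 CCAAT box and 1 GC box, and the Col4a2 window holds 1 CCAAT box and 3 GC boxes. The RefSeq table holds 2 windows for Col6a2; the one printed holds 1 GC box and the other 3, and in the Col6a1 window none of the 3 motifs occurred. The RefSeq table held 38 windows for 35 of the 44 genes. The GC box occurred in 60.5% of these 38 windows and in 35.7% of all 32851 windows, the CCAAT box in 34.2% and 37.4%, and the TATA box in 13.2% and 13.6%. A match describes letters in the window and not a bound site.

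Library totals ran between 12742953 and 16884621 estimated counts, at 14356900 ± 1133670 under TMA-ARB and 15151100 ± 1050390 in controls (SD, n = 5 each; two-sided exact permutation p = 0.317, smallest possible 0.00794). Mitochondrially encoded genes took 2.22%, 3.18%, 10.5%, 24.97% and 11.7% in TMA-ARB replicates 6 to 10, against 2.15%, 2.07%, 6.37%, 6.63% and 3.75% of counts in control replicates 1 to 5 (two-sided exact permutation p = 0.143). TMA-ARB replicates 8, 9 and 10 thus had shares above every control. The labels name no cause or batch for this share. Levels below are CPM, counts scaled to the TMM-adjusted size of each library, and 3 counts correspond to between 0.168 and 0.308 CPM. Among the epithelial markers, Krt18 averaged 131 CPM under TMA-ARB and 101 CPM in controls, Krt8 25.9 and 11.1 CPM (log2 fold change 1.23, unadjusted p = 0.0122 by edgeR) and Epcam 3.31 and 1.96 CPM, while Cldn3 and Cldn7 did not pass the filter. Krt19 averaged 12.8 CPM under TMA-ARB and 3.16 CPM in controls. Cdh1 went the other way, at 5.64 CPM under TMA-ARB and 7.04 CPM in controls (log2 fold change -0.32). TMA-ARB replicate 6 was the highest of the 10 libraries for Krt8 (56.8 CPM), Krt19 (51.6 CPM) and Epcam (12.1 CPM). The 7 epithelial markers summed to between 106 and 238 CPM under TMA-ARB and between 83.3 and 159 CPM in controls. The 8 fibroblast markers, 6 of them tested, summed to between 1244 and 3294 CPM under TMA-ARB and between 1559 and 2766 CPM in controls, and Dcn carried most of the sum, at means of 1954 and 1504 CPM. The receptors Pdgfrb and Pdgfra, in contrast, had log2 fold changes of -0.58 (unadjusted p = 0.0434 by edgeR) and -0.43 (unadjusted p = 0.109), Pdgfrb with means of 90.9 CPM under TMA-ARB and 136 CPM in controls. The part of fibroblast content in the collagen levels was not tested.

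The 44 collagen genes together took 1.02%, 0.568%, 0.562%, 0.348% and 0.572% of all counts in TMA-ARB replicates 6 to 10, against 0.673%, 1.04%, 0.790%, 0.661% and 0.754% in control replicates 1 to 5. TMA-ARB replicate 6 and control replicate 2 stood highest, TMA-ARB replicate 9 lowest, and the groups overlapped. Set on a common scale per kb of the longest coding transcript, the fibrillar chains led: Col1a1 averaged 353 CPM per kb over the 10 libraries and Col3a1 181 CPM per kb. The multiplexin Col18a1, which carries the fragment endostatin, followed at 132 CPM per kb, then Col6a1 at 120 CPM per kb and Col1a2 at 81.8 CPM per kb. The least abundant tested genes were Col22a1 at 0.185 CPM per kb and Col4a6 at 0.165 CPM per kb. Every pair of neighbours in this order had overlapping ranges. Col1a1 alone supplied between 24.5% and 36.3% of the collagen counts of a library. Relative spread over the 10 libraries was smallest for Col6a3, with a coefficient of variation of 18.5%, and Col16a1, with 20.2%. It was widest for Col15a1 (100%), Col5a2 (89.4%) and Col4a6 (88.6%).

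**Figure D1:**
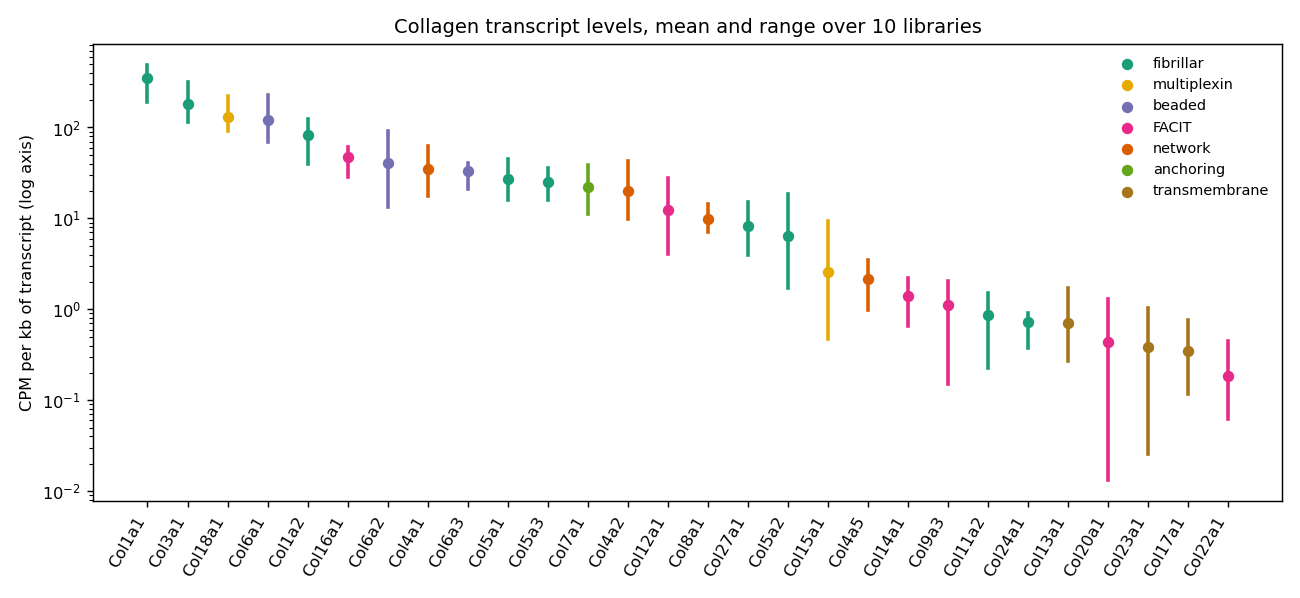
Points give the mean CPM per kb of transcript (log axis) over all 10 libraries of each tested collagen gene above 0 in every library. Col10a1 and Col4a6, at 0 in some libraries, are not drawn. Lines run from the lowest to the highest library, and colours mark structural classes. Col1a1 leads at a mean of 353 CPM per kb, Col22a1 is the last drawn at 0.185 CPM per kb, and the ranges of neighbours overlap.

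No collagen gene passed the test between TMA-ARB and control tumours. EdgeR's quasi-likelihood test called 0 of the 30 tested collagen genes at an adjusted p under 0.05, against a percentage called over all 14063 genes tested of 0, and its adjusted p was 0.997 for every one of the 30. At an unadjusted p under 0.05 there were 4 collagen genes, against 457 of all genes (3.25%): Col4a6, Col6a1 and Col6a2 lower (1.66% of all genes) and Col8a1 higher (1.59%). DESeq2, run with no low-count filter, called 0 collagen genes too, with 8 of 44 at an unadjusted p under 0.05, against 826 of 23981 genes (3.44%). By limma-voom there were 10 of 30 (9.93% of all genes), and in the libraries above a mitochondrial share of 5% by edgeR 10 of 34 (7.24% of all genes). In the libraries below that share there were 9 of 32 by edgeR, against 1194 of 14637 genes. Without the TMA-ARB libraries above 10% there were 7 of 33, against 1630 of 15142 genes. The edgeR count of 4 was 10 without TMA-ARB replicate 6 (8.5% of all genes) and 2 without control replicate 2 (1.56%). The filter was rerun for each refit. Without control replicate 2, only Col8a1 of the 4 stayed under 0.05 (unadjusted p = 0.01735 by edgeR), and the other gene counted lay outside the 30. Col4a6, Col6a1 and Col6a2 were then at 0.0561, 0.0774 and 0.115 (unadjusted p by edgeR). The log2 fold change (TMA-ARB over control) was negative for 19 of 30 collagen genes, against 47.2% of all genes. Its median was -0.15 over the collagen genes and 0.02 over all genes tested; the collagen median was -0.27 with TMA-ARB replicate 6 left out, -0.05 with TMA-ARB replicate 7 left out and -0.07 with control replicate 2 left out. In none of the 30 did the CPM ranges of the groups stay apart, against 0.526% of all genes.

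**Figure D2:**
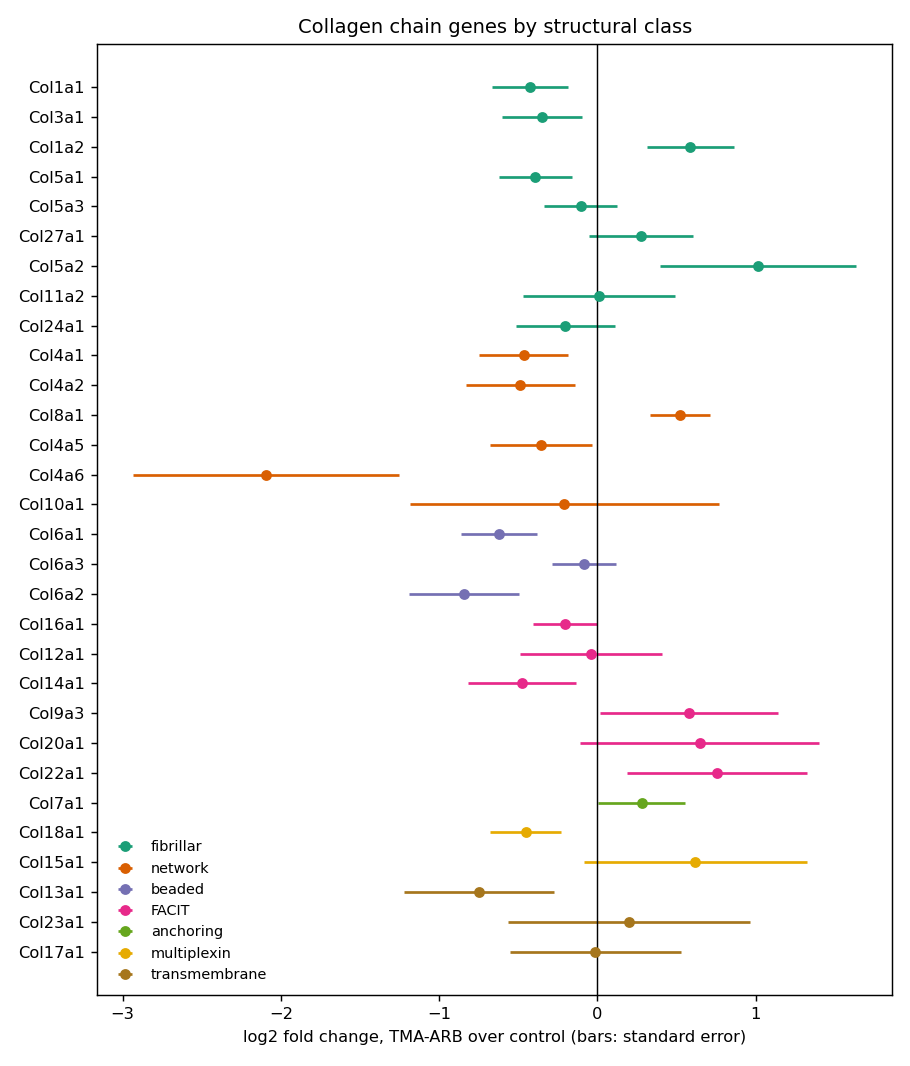
Points give each tested gene's log2 fold change, TMA-ARB over control, bars its standard error, and colours its structural class (edgeR, n = 5 libraries each). The 3 type VI chains lie below 0 and 5 of the 6 network chains do, while fibrillar and FACIT chains lie on both sides.

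A split within the TMA-ARB group recurred across collagen classes. For Col1a1, Col4a1, Col4a2, Col4a6, Col6a2 and Col18a1, 4 of the 5 TMA-ARB libraries lay below the lowest control, a pattern picked out after the values were seen. It held for 6 of the 30 collagen genes and for 3.2% of all genes tested. The TMA-ARB library that did not lie below was replicate 6 for 5 of these 6 genes. For the opposite pattern, 4 of 5 TMA-ARB libraries above the highest control, the only collagen gene was Col8a1, against 2.42% of all genes. Control replicate 2 was the highest library for 13 of the 30 collagen genes, and for 11 of the 14 with a mean of at least 100 CPM. TMA-ARB replicate 9, the library with the largest mitochondrial share, was the lowest for 8 of those 14. In the 5 libraries below a mitochondrial share of 5%, the log2 fold changes of Col1a1, Col4a1, Col4a2, Col4a6, Col6a2 and Col18a1 were -0.15, -0.17, -0.23, -1.77, -0.43 and -0.33. In the 5 libraries above it they were -0.64, -0.66, -0.53, -2.03, -1.15 and -0.42. With the log2 share as a covariate they were -0.26, -0.22, -0.12, -1.56, -0.50 and -0.25. Without the TMA-ARB libraries above 10% they were -0.13, -0.07, -0.03, -1.355, -0.29 and -0.18. Each of the 6 was thus farther from 0 on the side of the larger share. Below 5% stood TMA-ARB replicates 6 and 7 and control replicates 1, 2 and 5. Above it stood TMA-ARB replicates 8, 9 and 10 and control replicates 3 and 4. Replicate 6, the library outside the pattern for 5 of the 6 genes, was thus on the lower side. The choice of these genes by itself favours values nearer 0 there, and the difference between the sides was not tested.

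**Figure D3:**
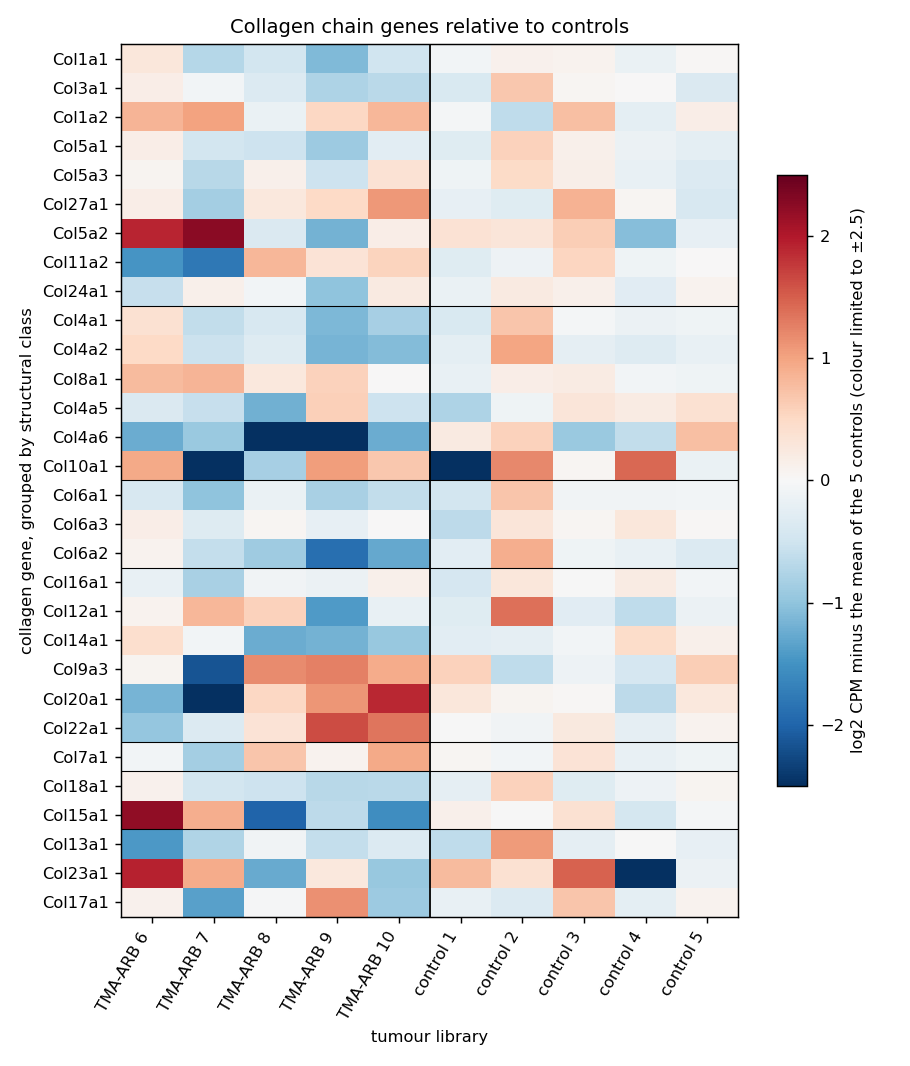
Each cell gives the log2 CPM of a collagen gene (rows, by structural class) in a library (columns) minus the mean of the 5 controls, with colour limited to ±2.5. TMA-ARB replicate 9 was lowest and control replicate 2 highest for many abundant chains, 8 and 11 of the 14 with a mean of at least 100 CPM.

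Among the fibrillar chains, 5 of 9 tested had negative log2 fold changes, with a median of -0.11 (0.02 without TMA-ARB replicate 7, and 0.15 by limma-voom), and none had an unadjusted p under 0.05. The 2 chains of type I collagen, the main fibril of stroma, had log2 fold changes of opposite sign. Col1a1 (ENSMUSG00000001506, chromosome 11) measured 2901, 1468, 1735, 1116 and 1700.5 CPM in TMA-ARB replicates 6 to 10, against 2294, 2567, 2557, 2147 and 2431 CPM in control replicates 1 to 5. All TMA-ARB libraries but replicate 6 lay below the lowest control, and replicate 6 lay above the highest. The means were 1784 ± 672 CPM under TMA-ARB and 2399 ± 179 CPM in controls (SD, n = 5 each), with a log2 fold change of -0.43 ± 0.24 (SE, unadjusted p = 0.0967 by edgeR). It was -0.67 without TMA-ARB replicate 6 (unadjusted p = 0.00289, adjusted p = 0.544 by edgeR) and -0.29 without TMA-ARB replicate 9 (unadjusted p = 0.241).

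Col1a2, the other chain of type I collagen, measured 594, 666, 296, 477 and 593 CPM under TMA-ARB, against 320.4, 214, 562, 279 and 374 CPM in controls. It averaged 525 ± 145 CPM under TMA-ARB and 350 ± 132 CPM in controls, 4 of the 5 TMA-ARB libraries lay above the control mean, and the groups overlapped. Its log2 fold change was 0.59 ± 0.28 (unadjusted p = 0.0515 by edgeR), 1.06 in the 5 libraries below a mitochondrial share of 5% and 0.10 in the 5 above it. Col3a1, the type III chain that joins type I in fibrils, measured 1212, 1037, 859.7, 638 and 684 CPM under TMA-ARB, against 838, 1741, 1120.4, 1091 and 852 CPM in controls. The groups overlapped, and the log2 fold change was -0.35 ± 0.25 (unadjusted p = 0.188 by edgeR), or -0.14 without control replicate 2.

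Type V chains set the diameter of type I fibrils. Col5a1 averaged 198 ± 55.6 CPM under TMA-ARB and 259.8 ± 70.9 CPM in controls, a log2 fold change of -0.39 ± 0.23 (unadjusted p = 0.113 by edgeR), and Col5a3 had a log2 fold change of -0.11. Col5a2, named after its values were seen, measured 97.5, 124, 20.2, 11.4 and 29.1 CPM under TMA-ARB, against 33.3, 31.8, 39.7, 12.3 and 22.4 CPM in controls. Only TMA-ARB replicates 6 and 7 lay above the controls, and replicate 9 lay below them. Its log2 fold change was 1.02 ± 0.62 (unadjusted p = 0.131 by edgeR). Among libraries below a mitochondrial share of 5%, where the TMA-ARB libraries are replicates 6 and 7, it was 1.92 (unadjusted p = 7.78e-06, adjusted p = 0.0651 by edgeR). Among those above that share it was -0.37 (unadjusted p = 0.526 by edgeR). Summed macrophage markers were likewise high in TMA-ARB replicates 6 and 7, at 1239.9 and 1134 CPM, and 392, 252.4 and 436 CPM in replicates 8 to 10, against 667 to 1103 CPM in controls. Control replicate 1, at 1103 CPM of these markers, had 33.3 CPM of Col5a2. Mural and myofibroblast markers summed to 931, 542, 365, 474 and 282 CPM in TMA-ARB replicates 6 to 10. In controls they summed to between 409 and 791 CPM. Most of this sum was Acta2, while Tagln, Rgs5 and Mcam were each higher in TMA-ARB replicates 6 and 7 than in 8 to 10. Tagln measured 112 and 83.5 CPM there, against 20.3, 26.0 and 8.58 CPM. Fibroblast markers summed to 1244 and 2430 CPM in replicates 6 and 7, and to 2318, 3294 and 2596 CPM in replicates 8 to 10. Dcn carried most of this sum. Lum measured 25.8 and 78.9 CPM in replicates 6 and 7, and 11.7, 10.6 and 17.8 CPM in replicates 8 to 10. The untested markers Fap and Dpt were likewise higher in replicates 6 and 7. Pdgfra was lower there, at 213 and 176 CPM against 435, 267 and 301 CPM, and Pdgfrb, Thy1 and Pi16 kept neither order. The part of any of these cell types in the Col5a2 values was not tested. The minor fibrillar chains Col27a1, Col11a2 and Col24a1 had log2 fold changes of 0.27, 0.01 and -0.20.

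**Figure D4:**
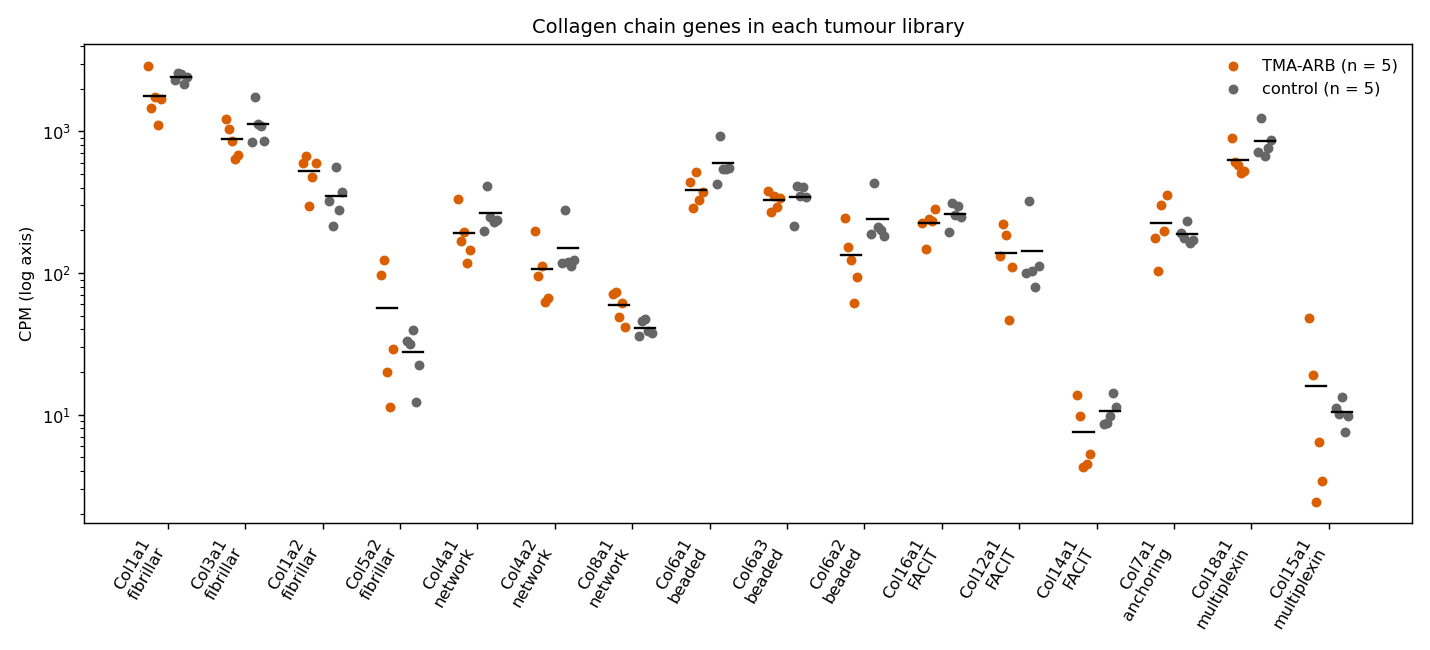
Points give the CPM (log axis) of 16 collagen genes in each library, Col5a2 among them and Col4a6 not drawn. TMA-ARB libraries stand left in each pair and control libraries right, with structural class under the symbol and lines at the group means. The groups overlap for every gene; the means of Col6a1 are 388 CPM under TMA-ARB and 598 CPM in controls, and those of Col8a1 59.2 and 41.3 CPM.

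Network-forming chains had a median log2 fold change of -0.41 over 6 tested genes, 5 of them negative, and of -0.19 without control replicate 2. Col4a1 measured 335, 168, 194, 118 and 145 CPM under TMA-ARB, against 198, 413, 247, 231 and 238 CPM in controls. Apart from replicate 6, every TMA-ARB library lay below every control. Col4a1 averaged 192 ± 85.0 CPM under TMA-ARB and 265 ± 84.7 CPM in controls, a log2 fold change of -0.47 ± 0.28 (unadjusted p = 0.122 by edgeR). It was -0.76 without TMA-ARB replicate 6 and -0.25 without control replicate 2. Col4a2 measured 199, 95.8, 111, 62.8 and 66.2 CPM under TMA-ARB, against 118, 279, 119.5, 112 and 123 CPM in controls. The same library stood apart in each group as for Col4a1, and TMA-ARB replicate 8 lay just under the lowest control. The log2 fold change of Col4a2 was -0.49 ± 0.35 (unadjusted p = 0.183 by edgeR), -0.83 without TMA-ARB replicate 6 and -0.14 without control replicate 2. Endothelial markers, from a cell type that lays down basement membrane, summed to between 214 and 330.3 CPM under TMA-ARB and between 239 and 416 CPM in controls, and control replicate 2 was their highest library. TMA-ARB replicate 7 was the highest TMA-ARB library for these markers, at 330.3 CPM, and its Col4a1 lay below every control. Control replicate 5 was the lowest control, at 239 CPM, with 238 CPM of Col4a1. The part of endothelial cells in the type IV values was not tested.

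The minor type IV chains Col4a5 and Col4a6 lie head to head on the X chromosome, 1308 bases apart, and form a trimer found in basement membranes of smooth muscle and some epithelia. Col4a6 had 10, 12, 0, 0 and 9 counts in TMA-ARB replicates 6 to 10, against 29, 44, 12, 14 and 46 counts in control replicates 1 to 5. The level was 0.401 ± 0.373 CPM under TMA-ARB and 1.79 ± 0.881 CPM in controls, close to the floor of 3 counts in several libraries. TMA-ARB replicate 7 overlapped the lowest control by a narrow margin and the other 4 TMA-ARB libraries lay below it. The fitted log2 fold change of -2.09 ± 0.84 (unadjusted p = 0.0255 by edgeR) depends on the prior count where libraries hold no reads. Col4a5 had a log2 fold change of -0.35, with means of 12.4 ± 6.23 CPM under TMA-ARB and 15.8 ± 4.48 CPM in controls. Col10a1, the chain of hypertrophic cartilage, had a log2 fold change of -0.21 at under 1 CPM.

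Col8a1, a short-chain network collagen of vessel walls and of the membrane under the corneal endothelium, was the network chain that lay on the other side of 0. It measured 70.9, 73.6, 49.2, 61.0 and 41.5 CPM under TMA-ARB, against 36.0, 46.0, 47.3, 38.9 and 38.0 CPM in controls. The first 4 of these TMA-ARB libraries lay above the highest control and replicate 10 lay within the control range. The means were 59.2 ± 13.8 CPM under TMA-ARB and 41.3 ± 5.07 CPM in controls, with a log2 fold change of 0.52 ± 0.19 (unadjusted p = 0.0150 by edgeR). Leaving out any library in turn gave between 0.44 and 0.63, with an unadjusted p under 0.05 in 10 of 10 refits. Among libraries below a mitochondrial share of 5% it was 0.85 (unadjusted p = 0.00619 by edgeR). Among those above that share it was 0.22 (unadjusted p = 0.369 by edgeR). Over all libraries, limma-voom gave 0.30 (unadjusted p = 0.0964).

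All 3 tested chains of type VI collagen, the beaded filament of the pericellular matrix, had negative log2 fold changes, with a median of -0.62, and of -0.40 without control replicate 2. Col6a1 measured 437, 285, 516, 329 and 376 CPM under TMA-ARB, against 422, 934, 540.3, 542 and 550.2 CPM in controls. All 5 TMA-ARB libraries lay below the control mean and 3 lay below the lowest control. Col6a1 averaged 388 ± 90.7 CPM under TMA-ARB and 598 ± 196 CPM in controls, a log2 fold change of -0.62 ± 0.24 (unadjusted p = 0.0207 by edgeR). Without control replicate 2 it was -0.40 (unadjusted p = 0.0774), and it was -0.81 in libraries below a mitochondrial share of 5% and -0.42 in those above it.

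Col6a2 measured 244, 152, 124, 61.6 and 93.9 CPM under TMA-ARB, against 189.7, 429, 211, 200.02 and 181 CPM in controls. All TMA-ARB libraries but replicate 6 lay below the lowest control. It averaged 135 ± 69.5 CPM under TMA-ARB and 242 ± 105 CPM in controls, a log2 fold change of -0.84 ± 0.35 (unadjusted p = 0.0310 by edgeR). Without TMA-ARB replicate 6 it was -1.17, without control replicate 2 it was -0.53 (unadjusted p = 0.115), and it was -0.43 below and -1.15 above a mitochondrial share of 5%. Col6a3, the long chain that completes the trimer, measured 376, 268, 349, 292 and 339 CPM under TMA-ARB, against 213, 414, 348, 407 and 342 CPM in controls. Its groups overlapped almost entirely, with a log2 fold change of -0.09 ± 0.20 (unadjusted p = 0.675 by edgeR). The 3 chains Col6a4, Col6a5 and Col6a6 did not pass the filter.

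FACIT chains sit on the surface of fibrils or bridge them to other matrix, and 3 of 6 tested had negative log2 fold changes. Col16a1 measured 227, 148, 242, 234 and 284 CPM under TMA-ARB, against 194, 314, 257, 299.5 and 247 CPM in controls, a log2 fold change of -0.21 ± 0.20 (unadjusted p = 0.323 by edgeR). Col12a1, which lines type I fibrils, measured 132, 222, 186, 46.6 and 109 CPM under TMA-ARB, against 100.3, 321, 103, 79.8 and 112 CPM in controls. It spread widely in both groups, with TMA-ARB replicate 9 lowest and control replicate 2 highest, and its log2 fold change was -0.04 ± 0.45. Col14a1 measured 13.9, 9.80, 4.28, 4.51 and 5.27 CPM under TMA-ARB, against 8.55, 8.81, 9.81, 14.2 and 11.3 CPM in controls. TMA-ARB replicates 8, 9 and 10 lay below all controls and replicates 6 and 7 within their range, for a log2 fold change of -0.48 ± 0.34 (unadjusted p = 0.187 by edgeR).

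The 3 low FACIT genes ran the other way between the same libraries. Col9a3, a chain of cartilage type IX collagen, Col20a1 and Col22a1 were each higher in TMA-ARB replicates 8, 9 and 10 than in replicates 6 and 7. Col20a1 measured 0.666, 0.0658, 2.44, 3.69 and 6.49 CPM in TMA-ARB replicates 6 to 10, against 1.00 to 2.04 CPM in controls. Replicates 6 and 7, the TMA-ARB libraries below a mitochondrial share of 5%, held few counts of these genes. They held 44 and 7 of Col9a3, 11 and 1 of Col20a1, and 9 and 14 of Col22a1, and the count of 1 lies under the floor of 3 counts. The log2 fold changes of Col9a3, Col20a1 and Col22a1 were 0.58, 0.65 and 0.75 over all libraries. They were -0.97, -2.34 and -0.70 in libraries below a mitochondrial share of 5%, and 1.44, 1.62 and 1.24 in those above it. The FACIT median of 0.27 therefore stood at -0.56 below and 0.78 above that share, and at -0.20 over genes with a mean of at least 5 CPM. Of 7 cartilage and bone markers, Acan and Matn1 were at 0 in every library, 2 passed the filter, and the list's sum was nearly all Sox9, a transcription factor that epithelia also express. The list summed to between 37.8 and 203 CPM under TMA-ARB and between 55.1 and 118 CPM in controls. Sox9 itself averaged 115 CPM under TMA-ARB and 95.1 CPM in controls, and Bglap, the other tested marker, 0.341 and 1.14 CPM. The part of these markers in the type IX value was not tested.

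Among the other chains, Col18a1, a basement membrane proteoglycan of vessels and epithelia, measured 896, 604, 580.4, 512 and 521 CPM under TMA-ARB, against 713, 1245, 675, 759 and 874 CPM in controls. All TMA-ARB libraries but replicate 6 lay below the lowest control. The log2 fold change was -0.45 ± 0.23 (unadjusted p = 0.0648 by edgeR), -0.62 without TMA-ARB replicate 6 (unadjusted p = 0.0101, adjusted p = 0.544 by edgeR) and -0.28 without control replicate 2 (unadjusted p = 0.216). Col15a1, the other multiplexin, measured 48.2, 19.2, 2.44, 6.46 and 3.38 CPM under TMA-ARB, against 11.2, 10.1, 13.3, 7.53 and 9.83 CPM in controls. TMA-ARB libraries lay on both sides of the control range, above it in replicates 6 and 7 and below it in the other 3. Its log2 fold change of 0.62 ± 0.70 was -0.40 without TMA-ARB replicate 6. Col7a1, the anchoring fibril of the epithelial basement membrane, measured 177, 104, 299.6, 198 and 357 CPM under TMA-ARB, against 191, 176, 234, 163 and 172 CPM in controls, a log2 fold change of 0.28 ± 0.28, or 0.06 without TMA-ARB replicate 10. The transmembrane chains Col13a1, Col23a1 and Col17a1 averaged under 3 CPM in each group, with log2 fold changes of -0.75, 0.20 and -0.01.

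Chains of 1 trimer need not be transcribed in equal amounts, so their levels per kb were set against each other within each library; these ratios carry no test. Col1a1 over Col1a2 was 4.40, 1.99, 5.28, 2.11 and 2.59 in TMA-ARB replicates 6 to 10, against 6.46, 10.8, 4.10, 6.95 and 5.86 in control replicates 1 to 5. The mean ratio was 3.27 ± 1.48 under TMA-ARB and 6.84 ± 2.48 in controls (SD, n = 5 each), a difference of -1.11 on the log2 scale, and only control replicate 3 lay within the TMA-ARB range. Leaving out any library kept the difference between -1.31 and -0.92. The triple helix of type I collagen usually holds more alpha 1 than alpha 2 chains. Col4a1 over Col4a2, in contrast, was 1.80 ± 0.199 under TMA-ARB and 1.80 ± 0.25 in controls, and every library lay between 1.45 and 2.14. Col6a1 over Col6a2 was 2.03, 2.13, 4.73, 6.05 and 4.54 under TMA-ARB, against 2.52, 2.47, 2.90, 3.07 and 3.45 in controls. TMA-ARB replicates 8, 9 and 10 lay above all controls and replicates 6 and 7 below them. Col5a1 over Col5a2 was 5.07 ± 3.33 under TMA-ARB and 8.36 ± 3.93 in controls, with ranges that overlapped.

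**Figure D5:**
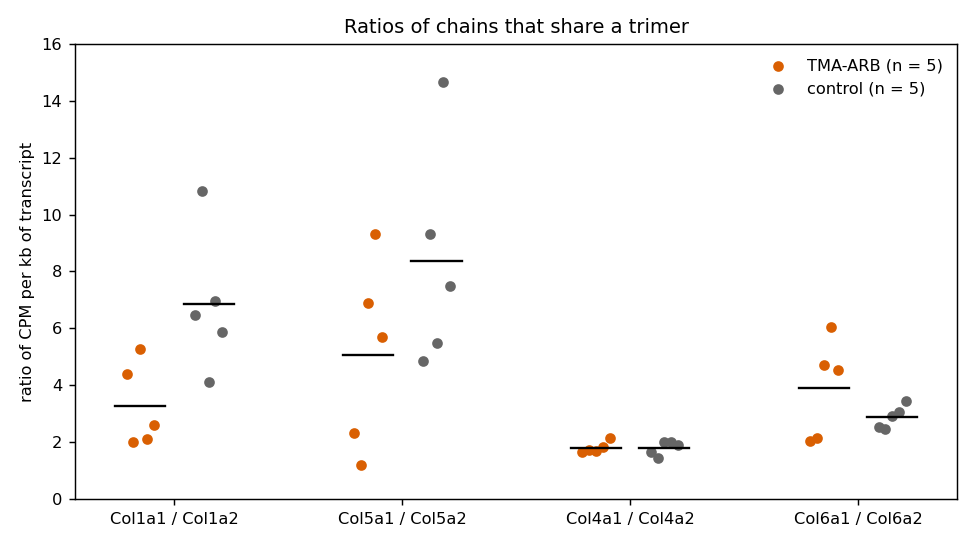
Points give the ratio of CPM per kb of 2 chains of the same trimer in each TMA-ARB library (left) and control library (right), with lines at the group means. The Col4a1 to Col4a2 ratio stays between 1.45 and 2.14, while the mean Col1a1 to Col1a2 ratio is 3.27 under TMA-ARB and 6.84 in controls.

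Across the 10 libraries, 9 pairs of chains that share a trimer or a fibril were compared on log2 CPM, with p-values from 100000 permutations adjusted over the 9 pairs. Col4a1 and Col4a2 followed each other most closely, with Pearson's r of 0.973 (permutation test, adjusted p = 0.00018) and Spearman's rho of 0.976 (adjusted p = 0.00018). The r was 0.943 without the 2 libraries farthest from the median of the first gene named, the rule used for every pair. It was 0.971 with group means removed (permutation test, adjusted p = 0.00558). The head-to-head promoter region that these genes share is printed above, and its part in their correlation was not tested. Col1a1 and Col5a1 had r = 0.846 (permutation adjusted p = 0.00729) and rho = 0.879 (adjusted p = 0.00657), with r = 0.714 without the 2 farthest libraries and 0.786 with group means removed (adjusted p = 0.0435). Col6a1 and Col6a2 had r = 0.743 (permutation adjusted p = 0.0496) and rho = 0.648 (adjusted p = 0.0867), and r = 0.564 with group means removed did not pass (adjusted p = 0.17). Col1a1 and Col3a1 had r = 0.662 (permutation adjusted p = 0.0843) and rho = 0.745 (adjusted p = 0.0396), and r = 0.566 with group means removed did not pass (adjusted p = 0.152). Col6a1 and Col6a3 had r = 0.634 (permutation adjusted p = 0.0963) and rho = 0.758 (adjusted p = 0.0396), but r = 0.455 without the 2 farthest libraries, and with group means removed r = 0.755 did not pass (adjusted p = 0.122). The chains of type I collagen, Col1a1 and Col1a2, had r = -0.26 (permutation adjusted p = 0.519) and rho = -0.20 (adjusted p = 0.657). Col6a2 with Col6a3, Col5a1 with Col5a2 and Col4a5 with Col4a6 had r of 0.379, 0.344 and 0.162, none past the test. Each side of a mitochondrial share of 5% holds 5 libraries, too few for a correlation within it.

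Genes that modify, process, cross-link, bind or degrade collagens were read from the same edgeR fit, and 0 were called. Among the prolyl and lysyl modification enzymes, 12 of 15 tested had negative log2 fold changes (median -0.17, and -0.08 without TMA-ARB replicate 9). The smallest unadjusted p-values were those of the lysyl hydroxylases Plod1 (-0.46 ± 0.23) and Plod3 (-0.31 ± 0.16) and of the prolyl hydroxylase subunit P4ha3 (-0.62 ± 0.31). All 5 lysyl oxidases had negative values, with a median of -0.24, which was 0.02 without control replicate 2; Lox itself was at -0.29 ± 0.44, Loxl1 at -0.27 and Loxl2 at -0.24. Of 11 chaperone and secretion genes tested, 8 were negative (median -0.08, and -0.02 without TMA-ARB replicate 9), with Fkbp14, Fkbp7 and Sec23a at -0.31, -0.26 and -0.19. Propeptide proteases had a median of 0.06 over 6 tested, with 2 negative (median -0.07 without TMA-ARB replicate 7): Adamts2, which trims the amino end of procollagen I, was at -0.30 and Tll1 at -0.49, while Adamts14 was at 0.18.

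Among fibril regulators, 8 of 14 tested were negative (median -0.04, and 0.17 without control replicate 2). The leucine-rich proteoglycan Prelp averaged 2.64 ± 1.71 CPM under TMA-ARB and 9.40 ± 7.40 CPM in controls, a log2 fold change of -1.82 ± 0.54 (unadjusted p = 0.00468, adjusted p = 0.997 by edgeR). Ogn was at -0.63 and Lum at 0.95. Of 11 collagen receptors tested, 8 were negative (median -0.16, or -0.35 with TMA-ARB replicate 8 left out and -0.05 with control replicate 5 left out). Mrc2, an endocytic receptor that takes up collagen for breakdown, measured 42.6, 30.8, 33.2, 23.6 and 32.0 CPM under TMA-ARB, against 44.7, 81.4, 37.2, 60.6 and 53.2 CPM in controls. Only TMA-ARB replicate 6 lay above the lowest control, and the log2 fold change was -0.77 ± 0.23 (unadjusted p = 0.0042, adjusted p = 0.997 by edgeR). Itga1 and Lair1 were at -1.08 and -0.54. Of 9 collagen-degrading genes tested, 5 were negative (median -0.04, and 0.14 without TMA-ARB replicate 6). Mmp14, the membrane collagenase, averaged 235 ± 82.0 CPM under TMA-ARB and 346 ± 80.7 CPM in controls, a log2 fold change of -0.56 ± 0.25 (unadjusted p = 0.0449, adjusted p = 0.997 by edgeR), with Mmp2 at -0.80 and Ctsb at -0.29. The medians of these lists stand beside 0.02 over all genes tested.

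The 14 collagen genes below the filter had between 3 and 105 counts each over all 10 libraries together. Col6a4 had 105 counts, Col6a5 64 and Col6a6 34. Col26a1 had 17 counts under TMA-ARB and 74 in controls, and Col25a1 had 51 in all. Col11a1, a cartilage fibril chain also known from activated stroma, had 10 and 33 counts in TMA-ARB replicates 6 and 7 and 0 in every other library. Col9a1 had 7, 1 and 13 counts in TMA-ARB replicates 6, 9 and 10 and 0 elsewhere. Col8a2 had 35 counts, Col2a1, the main cartilage collagen, 23, and the kidney and lung type IV chains Col4a4 and Col4a3 had 19 and 13. Col28a1, Col19a1 and Col9a2 had 5, 4 and 3.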

How the data were processed

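RNA was measured in 10 tumour libraries, and groups were taken from the sample titles. The deposited table holds estimated counts for 37882 genes in 10 columns. Salmon and mm10 are named in the submitters' processing notes; its version, annotation and strand setting are not given in the sources used here. Every deposited value was a whole number (0 were not), and 0 columns were left unmatched. Salmon divides reads among similar transcripts, which makes overlapping or near-identical genes less certain. Without molecular identifiers, floors cover counting error only.

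EdgeR 4.0.16 (R 4.3.3) was used for quasi-likelihood tests, with TMM scaling, its expression filter (14063 genes kept), robust dispersion and Benjamini-Hochberg adjustment at 0.05 over all genes; the step was tested on simulated data. The standard error was the absolute log2 fold change over the square root of F, and log2 CPM used a prior count of 2. Alternatives were DESeq2 1.42.0, limma-voom 3.58.1 with sample weights, RLE scaling, no filter, a mean of at least 5 CPM, a mitochondrial share covariate, the libraries on either side of 5%, a fit without TMA-ARB libraries above 10%, an adjusted p under 0.10 and each library left out. Leaving out mitochondrially encoded genes was added after seeing the data. Values in every library are given for genes with an unadjusted p under 0.05 and for up to 3 genes per class of highest mean, at least 5 CPM; of partner lists, the 3 of smallest p are named. Members and lists were chosen with earlier results of these data known. Gene coordinates come from GENCODE mouse release 21, and promoter windows and starts from RefSeq, GRCm38.p6, the assembly of mm10. Permutations used scipy 1.17.1 in Python 3.11.15, and figures matplotlib 3.10.9.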

Additional observations from a re-analysis of the deposited data

Results flagged for a closer look

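Of 40 groups of 5 libraries looked at, 6 held a library far from the other 4; chance flags about 1 group in 20. In controls, replicate 2 stood above the other 4 libraries for 5 genes, with 934 CPM of Col6a1, 429 CPM of Col6a2, 413 CPM of Col4a1, 279 CPM of Col4a2 and 321 CPM of Col12a1. Under TMA-ARB, replicate 6 stood above the others for Col18a1, with 896 CPM. Within a library these genes are not independent, so the 5 in control replicate 2 come from a single tumour library.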

How the results depend on the processing

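No paired analysis was possible because the replicate numbers run from 1 to 10 and the groups share none. Collagen genes called stayed at 0 under every alternative run. The smallest adjusted p for a collagen gene was 0.0651 over edgeR refits, that of Col5a2 in libraries below a mitochondrial share of 5%. It was 0.995 by DESeq2 (which gave no adjusted p for 84 genes) and 0.491 by limma-voom. Over all genes, 0 were called by the edgeR fit reported, 2 by DESeq2, 4 in the libraries above a mitochondrial share of 5%, and 0 whichever library was left out. Collagen genes at an unadjusted p under 0.05 ran from 2 to 10, while the number tested (22 to 44) and the share of all genes moved too. The collagen median ran from -0.30 to -0.05. The FACIT median of 0.27 was -0.20 at a mean of at least 5 CPM, -0.26 with the mitochondrial covariate, -0.56 and 0.78 in libraries below and above 5%, and -0.60 without the TMA-ARB libraries above 10%; without 1 library it ran from 0.02 to 0.46. The correlation of Col1a1 with Col1a2 was 0.125 with group means removed and 0.0725 without the 2 farthest libraries, that of Col4a5 with Col4a6 -0.18 and of Col6a1 with Col6a2 0.564 with group means removed, and that of Col6a2 with Col6a3 0.0778 without the 2 farthest.

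Direction changed for single genes, none of them called, and the cause was not tested. With RLE scaling Col17a1 was at 0.00071. By limma-voom Col10a1 was at 0.42, Col15a1 -0.97, Col23a1 -0.41 and Col5a3 0.15. With the mitochondrial covariate Col11a2 was at -0.88, Col12a1 0.49, Col20a1 -0.65, Col22a1 -0.19, Col27a1 -0.054 and Col9a3 -0.041. Below 5%, Col11a2 was at -1.56, Col14a1 0.31, Col20a1 -2.34, Col22a1 -0.70, Col7a1 -0.35 and Col9a3 -0.97. Above 5%, Col12a1 was at 0.32, Col15a1 -1.37, Col23a1 -1.20, Col5a2 -0.37 and Col5a3 0.040. Without the TMA-ARB libraries above 10%, Col11a2 was at -1.73, Col12a1 0.30, Col14a1 0.17, Col20a1 -2.17, Col22a1 -0.71, Col27a1 -0.33, Col7a1 -0.41 and Col9a3 -0.77. Without 1 library, Col10a1 ran from -0.53 to 0.21, Col11a2 from -0.28 to 0.26, Col12a1 from -0.27 to 0.49, Col15a1 from -0.40 to 0.91, Col17a1 from -0.50 to 0.22, Col20a1 from -0.0039 to 0.96, Col23a1 from -0.49 to 0.65 and Col5a3 from -0.23 to 0.032. Depth limits the genes near the floor of 3 counts, among them Col4a6, Col20a1 in TMA-ARB replicate 7 and the 14 untested genes.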
